A study of Mus musculus with 13 samples.

Results

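The B lineage genes examined here are 9 genes, Ebf1, Pax5, Il7r, Cd79a, Cd79b, Vpreb1, Igll1, Blnk and Bcl6, out of 21887 protein-coding genes in the reference. They were chosen by name, and every called region inside their bounds or within 50 kb of them was collected from 18 deposited lists. Merged over all lists, 19 regions of 41218 met that rule. The lists come from chromatin immunoprecipitation with sequencing (ChIP-seq) in Ba/F3, a single mouse pro-B cell line that needs the cytokine interleukin 3 (IL3) to live. The line was kept in 1 ng/mL IL3. In one condition (with IL3), 6 h of deprivation were followed by 30 min of stimulation at 10 ng/mL, and in the other (without IL3) cells were taken after the 6 h of deprivation, so both groups share it. In each condition the transcription factor STAT5A, the histone demethylase LSD1 and the histone deacetylase HDAC3 were profiled in 2 biological replicates, which makes 12 libraries, and a pooled list comes with each of the 6 groups. The labels carry no further genotype or treatment. No RNA was measured here, so the pro-B label was not tested against the expression of its markers.

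In B cell progenitors EBF1 and PAX5 are the transcription factors that open and hold the B cell programme. IL7R is the receptor chain through which interleukin 7 activates STAT5 in mouse progenitors. VPREB1 and IGLL1 (lambda 5) form the surrogate light chain of the pre-B cell receptor, CD79A and CD79B are its signalling chains, and BLNK is the adaptor that couples it to downstream kinases. BCL6 is a repressor that works through corepressors such as NCoR and HDAC3, and in mouse B cell progenitors STAT5 activity is known to keep it low. STAT5 dimers prefer the palindrome TTCNNNGAA. LSD1 is the demethylase of CoREST complexes and HDAC3 the deacetylase of NCoR complexes, and both also act at lineage genes that are to be kept silent.

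The promoters of 8 of the 9 genes have an entry in the RefSeq promoter set (build GRCm38.p6, the assembly that mm10 names), each covering 300 bases from 250 before to 50 after a transcription start, and Cd79b has none. Both strands were searched for TTCNNNGAA, and 3 of the 10 entries hold it, those of Bcl6 and Il7r, against 7.69% of all 21263 entries of protein-coding genes. These promoters are printed because they hold the palindrome and neither gene had a STAT5A region within 50 kb in any list. Blnk had no such region either, and its promoter holds no match. Capitals mark each match, and the position of its first base is counted upstream of the start, with -1 the base just before it.
Bcl6, second listed start, chr16:23981234-23981533, minus strand: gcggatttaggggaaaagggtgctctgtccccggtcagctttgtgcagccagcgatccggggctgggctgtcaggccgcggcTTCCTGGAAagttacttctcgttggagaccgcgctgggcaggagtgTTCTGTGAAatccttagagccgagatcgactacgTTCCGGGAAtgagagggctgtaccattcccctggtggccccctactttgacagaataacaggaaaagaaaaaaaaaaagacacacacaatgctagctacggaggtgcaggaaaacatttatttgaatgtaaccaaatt
Bcl6, first listed start, chr16:23988803-23989102, minus strand: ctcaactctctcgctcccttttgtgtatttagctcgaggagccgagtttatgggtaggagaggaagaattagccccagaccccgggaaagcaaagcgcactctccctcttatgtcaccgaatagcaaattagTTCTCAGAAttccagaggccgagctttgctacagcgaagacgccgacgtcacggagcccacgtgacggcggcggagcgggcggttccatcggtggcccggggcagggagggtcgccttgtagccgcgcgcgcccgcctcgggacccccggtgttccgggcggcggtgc
Il7r, chr15:9529827-9530126, minus strand: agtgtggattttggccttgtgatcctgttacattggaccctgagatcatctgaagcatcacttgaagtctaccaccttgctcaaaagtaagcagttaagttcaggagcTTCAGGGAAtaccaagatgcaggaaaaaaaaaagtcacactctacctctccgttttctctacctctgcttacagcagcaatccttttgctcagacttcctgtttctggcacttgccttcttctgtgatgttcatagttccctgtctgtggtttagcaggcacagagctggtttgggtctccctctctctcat
The promoter at the second Bcl6 start holds 3 matches, at -168, -122 and -88. That at the first Bcl6 start holds 1, at -118, and that of Il7r 1, at -142. No region of any list overlapped any of the 10 member promoters. Under the regions lie 8 promoter entries of 5 neighbouring genes, and 0 of these hold the palindrome. A match is a description of the letters and says nothing of binding.

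Inside a member gene lay 3 of the 19 regions, in Ebf1, Pax5 and Bcl6, and 0 lay within 1 kb of a listed start of a member. Counted as pairs of a region and a gene within 50 kb of it, since Vpreb1 and Igll1 share regions, 3 of 23 pairs had the region inside the gene, against 24.4% over all protein-coding genes. Within 1 kb of a listed start lay 0 of 19 pairs, against 14.2%, and these shares were not tested. Within 1 kb of the start of another gene lay 6, at Arhgef1 (2 regions), Top3b, Ppm1f, Zcchc7 and Rps19. Both replicates of some group shared 4 of the regions, 5 appeared in pooled lists alone and 8 in a single replicate library, with or without a pooled call. None was in all 6 pooled lists. For starts of other genes and for replicate and pooled calls, the shares among all merged regions were not counted. Whether these counts are particular to the B lineage genes was therefore not tested. Exons and introns are not annotated in the reference used here.

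**Figure D1:**
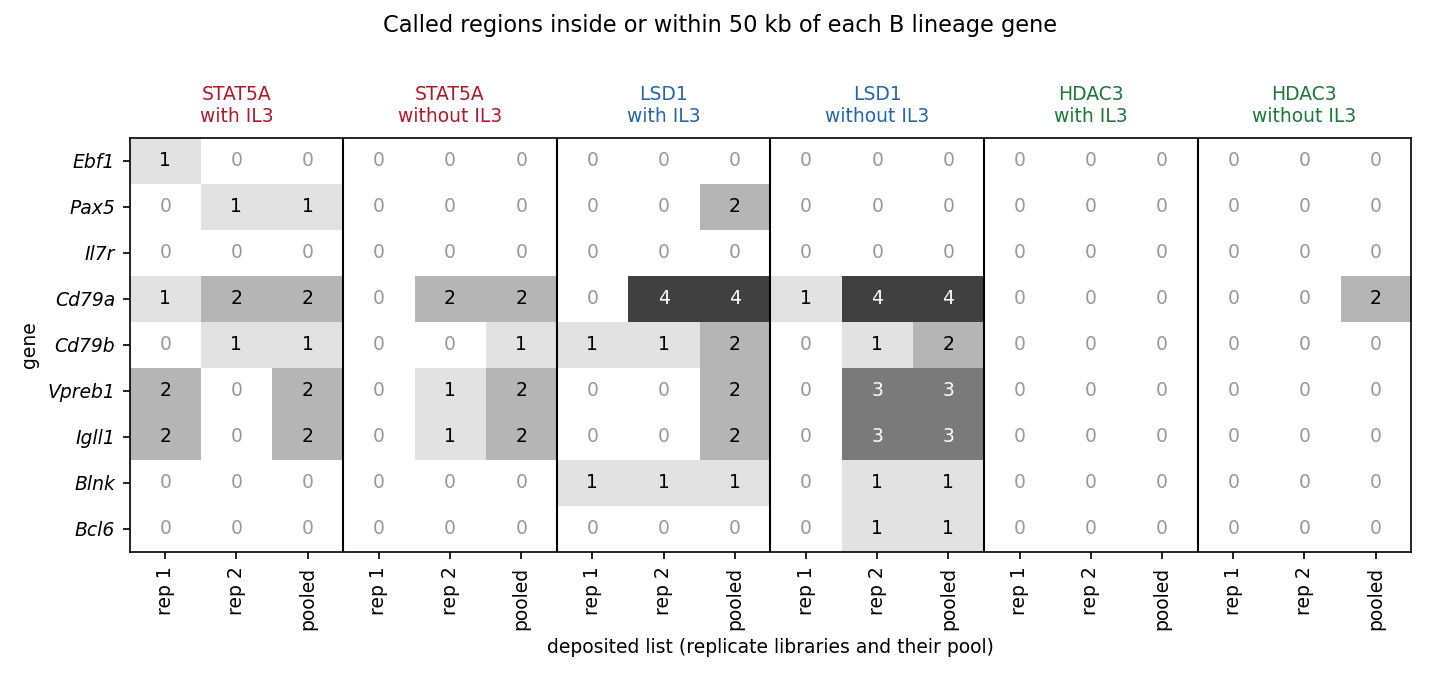
Number of called regions inside or within 50 kb of each of the 9 genes (rows) in the 12 replicate lists and 6 pooled lists (columns), with the number written in each cell. Il7r has 0 in every list, HDAC3 is at 0 apart from 2 pooled regions near Cd79a without IL3, and Vpreb1 and Igll1 share the same regions.

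The lists differ in length. STAT5A replicates held 13574 and 6288 regions with IL3 against 354 and 4513 without, LSD1 held 6479 and 11570 against 1007 and 15786, and HDAC3 held 683 and 265 against 1632 and 535. Each region carries the authors' score, which is printed as given and compared only by rank inside 1 list, with 0% at the top. Scores in a list are whole multiples of 1 step (within 0.13), and the weakest region called held 4 to 6 steps, so binding under that floor was not detectable. The step differs between lists. For LSD1 it was 1.28 in the pooled list with IL3, 2.54 in that without and 15.12 in replicate 1 without. Scores of different lists are therefore not on 1 scale. The sources used here state no read totals. Without IL3, replicate 1 of STAT5A and replicate 1 of LSD1 stand apart by their short lists, and in HDAC3 with IL3 replicate 2 a single region held 79.5% of the summed score.

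STAT5A with and without IL3 was compared to ask if the stimulated factor reaches the B lineage genes. With IL3 the pooled list placed STAT5A within 50 kb of 5 of the 9 genes (Pax5, Cd79a, Cd79b, Vpreb1 and Igll1), against 61.4% of all protein-coding genes. Without IL3 it did so at 4 genes (Cd79a, Cd79b, Vpreb1 and Igll1), against 40.9% of all genes. Single libraries reached 4 and 3 of the 9 genes with IL3, where they reached 56.2% and 43.8% of all genes, against 0 and 3 without IL3, where they reached 3.93% and 38.7%. In both replicates with IL3, 1 gene (Cd79a) had a STAT5A region, where 37.2% of all genes did. In both replicates without IL3, 0 genes did, against 3.14% of all genes. A STAT5A region was termed gained if both lists with IL3 held it while those without IL3 did not, and lost in the opposite case. Near these genes 0 regions were gained, against 8.72% of all merged STAT5A regions, and 0 were lost, against 0.0482%. In the same terms 15.6% of all genes had a gained and 0.164% a lost STAT5A region within 50 kb. Ebf1, Il7r, Blnk and Bcl6 had no pooled STAT5A region in either condition.

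By library, 4 and 4 STAT5A regions lay near the 9 genes with IL3 (4.0 ± 0, SD, n = 2), against 0 and 3 without (1.5 ± 2.12, n = 2). The library with 0 is the one with 354 regions in all. On the log2(number + 1) scale the difference was 1.32, and a two-sided exact permutation test gave p = 0.333, which is the floor for 2 libraries against 2. Dropping replicate 1 or replicate 2 of the libraries without IL3 moved the difference to 0.32 or 2.32. Gained regions numbered 3 when replicate 1 with IL3 was dropped, 2 when replicate 2 with IL3 was, and 1 when replicate 2 without IL3 was. Lost regions numbered 1 when replicate 1 without IL3 was dropped. That lost region and 1 of the 3 gained ones are calls of the 2 conditions that lie side by side, at a distal place 46295 bp before Cd79a. In the pooled lists 6 STAT5A regions with IL3 and 5 without fell in the 1.505 Mb around these genes, which is 3.99 and 3.32 per Mb. Around all protein-coding genes the density was 8.41 per Mb with and 2.88 per Mb without IL3.

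**Figure D2:**
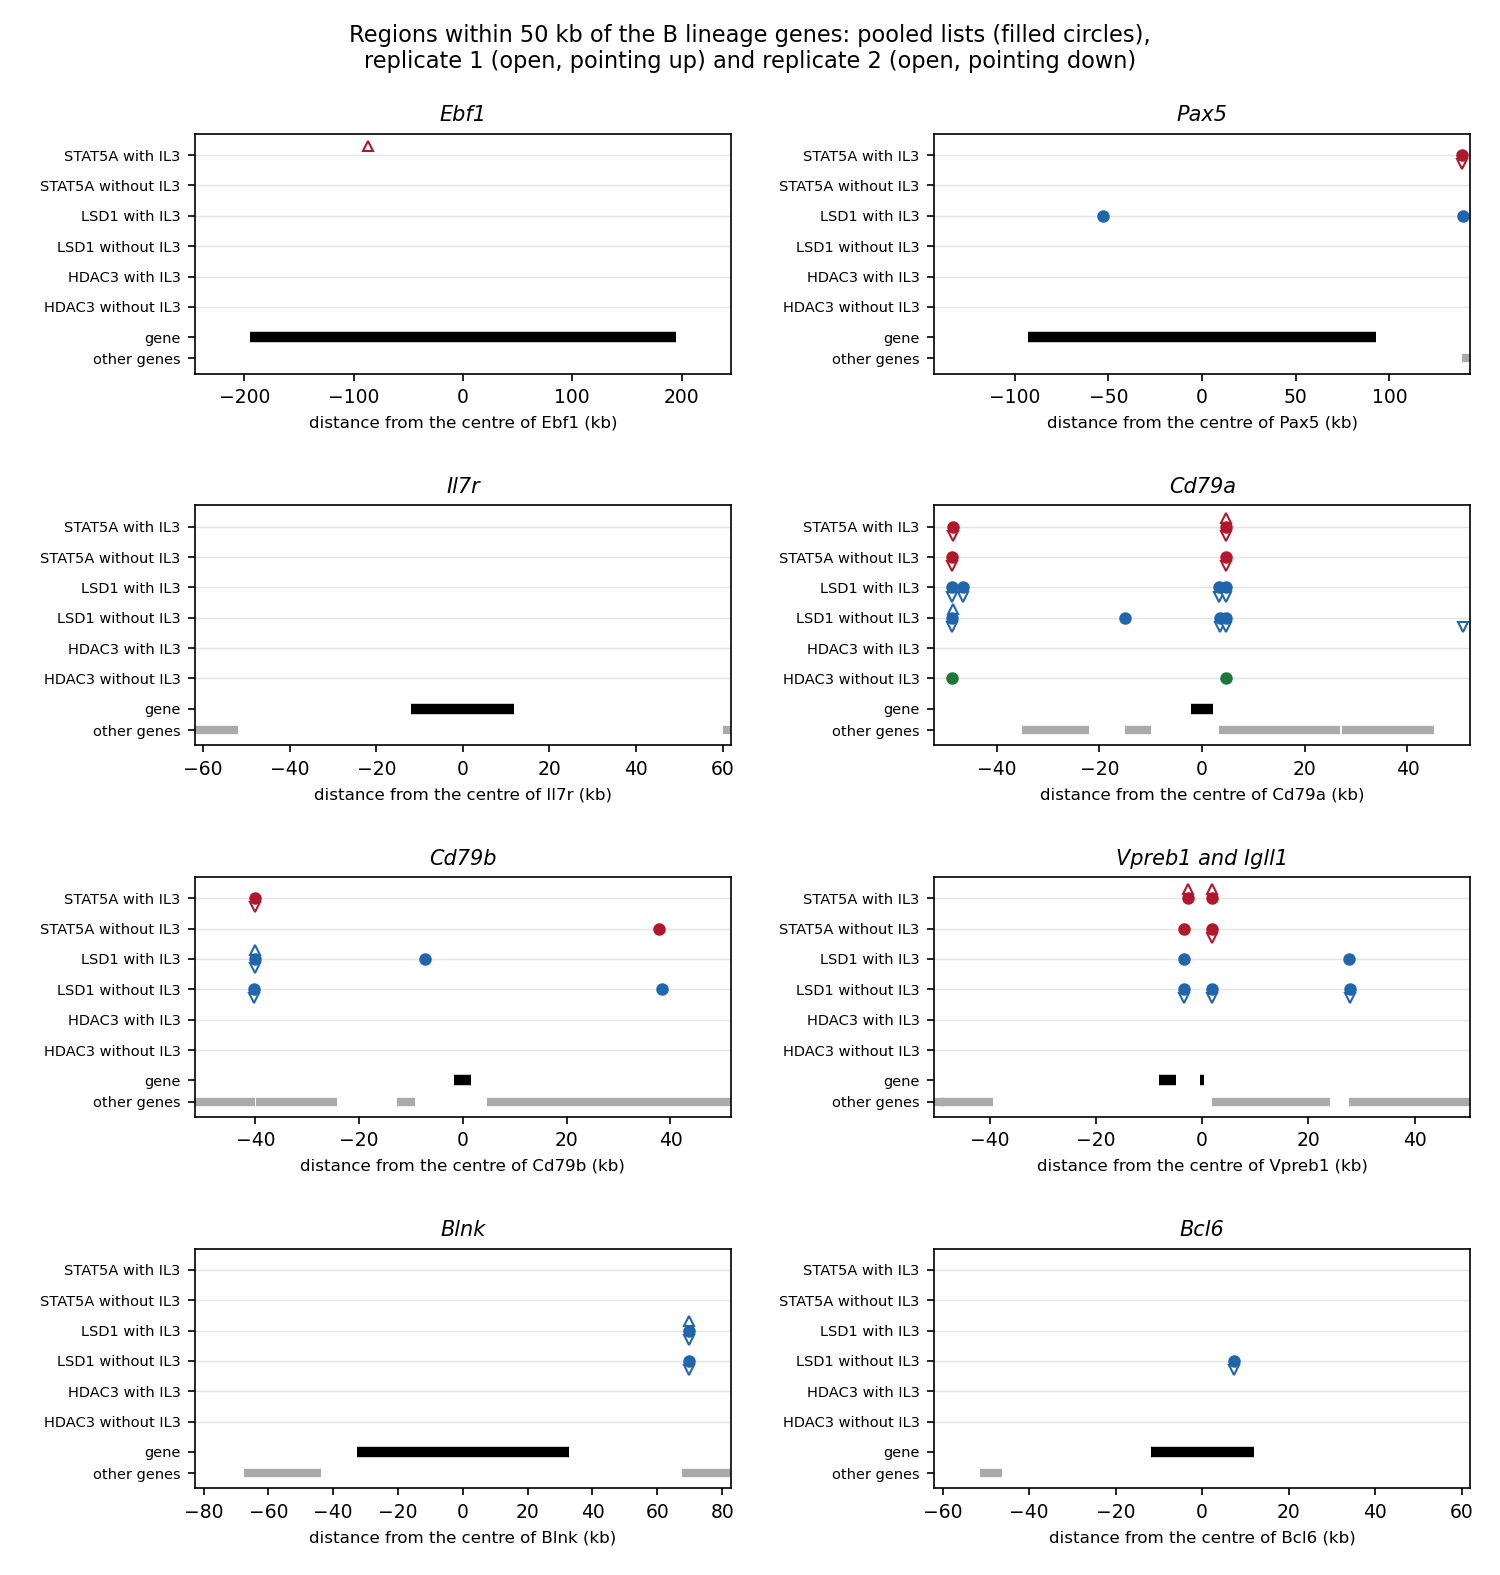
Positions of the regions in kb from the centre of each gene (Vpreb1 and Igll1 share a panel), with pooled lists as filled circles, replicate 1 as open triangles pointing up and replicate 2 as open triangles pointing down. Black bars are the named genes and grey bars other protein-coding genes, and symbols lie over a black bar in the panels of Ebf1, Pax5 and Bcl6 alone.

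The highest-scoring STAT5A region lay beside Cd79a but at the start of another gene. It covered chr7:24904134-24904418 over the lists, 2276 bp beyond the end of Cd79a and with its centre 70 bp upstream of a listed start of Arhgef1. With IL3 STAT5A was called there in both replicates, with scores of 70.9 and 205.1, and without IL3 in replicate 2 alone, with 217.3. Its rank was 24.7% and 0.700% of the replicate lists with IL3 and 0.0443% of the replicate 2 list without. In the pooled lists it ranked at 6.65% with and 0.0396% without IL3, second of 5051 regions. It is thus a region called in both conditions, though without IL3 by 1 STAT5A library. The short replicate 1 list without IL3 lacked it, and the cause was not tested. LSD1 was called on it in replicate 2 of both conditions, with scores of 32.0 with and 33.5 without IL3, and HDAC3 in the pooled list without IL3 alone, with 17.8. The region was in 5 of 6 pooled lists, of all 3 antibodies. Whether the input library also has signal there was not tested.

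A second place near Cd79a, chr7:24850852-24851202 when all lists are merged, lay at the far edge of its window, 46295 bp before the gene and in no gene. STAT5A was called there by replicate 2 of each condition, at chr7:24851022-24851202 with IL3 (25.0, rank 94.8%) and at chr7:24850870-24851010 without (20.4, rank 69.2%). These calls are neighbours and do not overlap, nor do the pooled ones, and calls of LSD1 join them. Of the LSD1 libraries, replicate 2 with IL3 held it (29.3, rank 34.7%), as did both replicates without (75.6, rank 52.4%, and 45.7, rank 17.1%). The pooled HDAC3 list without IL3 had a call of 13.3 (rank 95.6%).

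Vpreb1 and Igll1 are neighbours on the same strand, and their windows hold the same 4 regions. STAT5A was called at chr16:16866138-16866312, between the 2 genes and 2240 bp upstream of the Igll1 start, by replicate 1 with IL3 alone of the 4 libraries (26.1). A separate region lay closer to Igll1, at chr16:16865294-16865559, 1441 bp upstream of its start. There the pooled STAT5A list without IL3 had a call (16.8) that no replicate held. LSD1 was called there in replicate 2 without IL3 (36.6) and in the pooled lists of both conditions. Those pooled scores were 15.4 with IL3 (rank 54.8%) and 35.5 without (rank 25.4%), in lists whose steps differ. Both regions sit upstream of the lambda 5 gene, and the STAT5A one called with IL3 overlapped no LSD1 region. The region at chr16:16870658-16870842 lay 1403 bp upstream of Vpreb1 and 14 bp from the start of Top3b, the gene of a DNA topoisomerase. STAT5A was called there in replicate 1 with IL3 (26.1) and in replicate 2 without (27.2), and LSD1 in replicate 2 without IL3 (36.6) and in no list with IL3. The Top3b promoter is printed because the region nearest to Vpreb1 lies on it, and it holds no TTCNNNGAA.
Top3b, chr16:16870486-16870785, plus strand: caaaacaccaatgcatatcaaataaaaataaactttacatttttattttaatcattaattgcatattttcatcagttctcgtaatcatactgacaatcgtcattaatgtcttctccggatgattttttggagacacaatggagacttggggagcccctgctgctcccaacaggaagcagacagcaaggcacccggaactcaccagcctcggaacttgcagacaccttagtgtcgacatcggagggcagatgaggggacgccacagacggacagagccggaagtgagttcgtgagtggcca
The fourth region, at the start of the phosphatase gene Ppm1f and 27153 bp from Vpreb1, had LSD1 alone. It was called in replicate 2 without IL3 (30.5) and in the pooled lists with (14.1, rank 64.4%) and without IL3 (33.0, rank 30.2%).

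At Pax5 the STAT5A region with IL3 lay 45860 bp upstream of the gene, at chr4:44756554-44756876 and 156 bp from the start of Zcchc7. Replicate 2 called it (40.0, rank 34.7%) and replicate 1 did not, and neither library without IL3 did. The pooled LSD1 list with IL3 had a region over it (10.3) and another inside Pax5, at chr4:44564679-44564849 and 145.9 kb downstream of the start (10.3). Both ranked at 89.1%, and no replicate list of LSD1 held either. At Cd79b the STAT5A region with IL3 was called in replicate 2 alone (30.0, rank 82.2%), inside the chromatin remodelling subunit gene Smarcd2 at chr11:106272599-106272985, 38356 bp from Cd79b. Without IL3 the pooled list had a different one inside the sodium channel gene Scn4a (12.6, rank 97.2%), which no replicate held.

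Ebf1 and Il7r stood empty in all 6 pooled lists, as did 28.3% of all protein-coding genes. Ebf1 spans 390.0 kb, and of genes of 100 kb or longer 30.2% had no region in the 6 pooled lists. Its single call was STAT5A in replicate 1 with IL3, at chr11:44725806-44725978 inside the gene and 105.7 kb downstream of its nearest listed start, with a score of 22.4 that ranks at 90.6%, and the pooled list did not hold it. The nearest pooled STAT5A region was 787.7 kb from Ebf1 with and 797.4 kb without IL3, and it was farther than that of 92.5% and 84.9% of genes. Il7r had 0 regions in all 18 lists, and its nearest pooled STAT5A region was 403.7 kb away with and 431.2 kb without IL3. A nearer one was found for 87.1% of genes with and 76.2% without IL3. For Blnk the nearest STAT5A region was 88.3 kb away with and 97.6 kb without IL3, both inside Ccnj, where 69.4% and 51.7% of genes had a nearer one.

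Bcl6, whose promoters carry the 4 matches shown above, had no STAT5A region within 50 kb in any of the 4 replicate lists or the 2 pooled lists. The nearest one with IL3 lay 87.8 kb from the gene, at chr16:24076618-24076792 (29.9, rank 38.0%), and without IL3 162.5 kb away. Of all genes, 69.3% with and 60.3% without IL3 had a nearer STAT5A region. LSD1 was the one protein called at Bcl6. Its region lay inside the gene between the 2 listed starts, at chr16:23984336-23984525 and 3147 bp upstream of the second start, in replicate 2 without IL3 (24.4, rank 68.8%) and in the pooled list without IL3 (25.4, rank 53.0%). Replicate 1 without IL3, with 1007 regions in all, and both replicates with IL3 did not hold it, and the nearest pooled LSD1 region with IL3 was 138.7 kb away. The numbers of regions per list that were most like those of Bcl6 over the 12 replicate lists, on the log2(number + 1) scale, were those of Mc5r and Rnmt (Pearson r 1.0 each) and Myl9 (0.929), and the next genes tied at 0.913. Bcl6 has 1 region in 1 of these lists, so the likeness is that of 1 library.

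**Figure D3:**
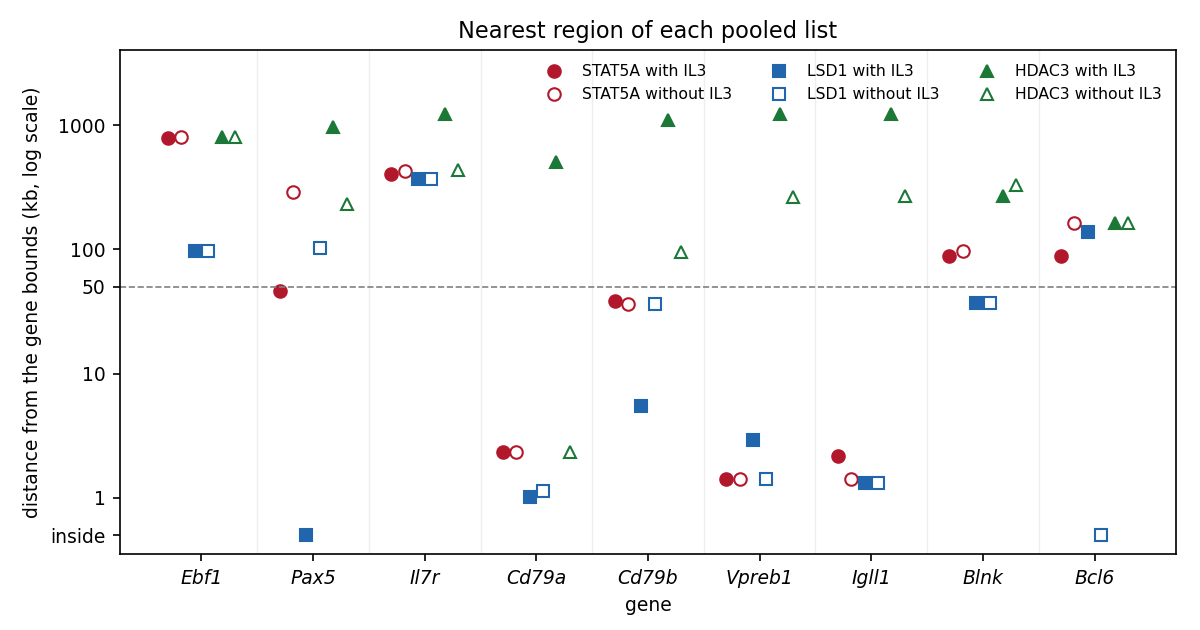
Distance in kb (log scale) from the bounds of each gene to the nearest region of each of the 6 pooled lists, with filled symbols for lists with IL3, open symbols for lists without IL3 and a dashed line at 50 kb. Ebf1 and Il7r lie above the line for all lists, Blnk and Bcl6 for STAT5A and HDAC3, and symbols at the bottom mark a region inside the gene.

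LSD1 with and without IL3 was compared to ask if the demethylase sits at these genes and moves with the cytokine. In the pooled lists LSD1 had the most regions here, 11 in each condition against 6 with and 5 without IL3 for STAT5A. That is 7.31 per Mb in each condition, where the density around all protein-coding genes was 9.61 with and 9.41 without IL3. By library the mean number with IL3 was 4.0 for both proteins. The pooled lists placed LSD1 near 6 of 9 genes with IL3 (Pax5, Cd79a, Cd79b, Vpreb1, Igll1 and Blnk), against 64.7% of all genes, and near 6 without (Cd79a, Cd79b, Vpreb1, Igll1, Blnk and Bcl6), against 63.0%. Single libraries reached 2 and 3 genes with IL3, where they reached 42.7% and 57.8% of all genes, against 1 and 6 without IL3, where they reached 10.2% and 62.5%. Both LSD1 replicates with IL3 reached 2 genes (Cd79b and Blnk), where they reached 40.0% of all genes, and both without IL3 reached 1 (Cd79a), against 10.1%. By library 2 and 6 regions were counted with IL3 (4.0 ± 2.83, SD, n = 2), against 1 and 10 without (5.5 ± 6.36). The groups overlap, and the difference on the log2(number + 1) scale was -0.03 (p = 1.0, two-sided exact permutation test). It turned to 1.20 when replicate 2 without IL3 was dropped and to 0.58 when replicate 1 with IL3 was, and was -1.26 when replicate 1 without IL3 was, so single libraries set its sign. Gained LSD1 regions numbered 0 here, against 3.36% of all merged LSD1 regions, and lost ones 0, against 0.319%. Dropping replicate 1 with IL3 gave 1 gained region and dropping replicate 2 without IL3 gave 2. Dropping replicate 2 with IL3 gave 1 lost region and dropping replicate 1 without IL3 gave 5.

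With IL3, both LSD1 libraries held a region near Blnk and a region near Cd79b. That of Blnk, at chr19:41031120-41031368, lay 36899 bp beyond the gene and inside Dntt, 1969 bp from its start. Dntt encodes terminal deoxynucleotidyl transferase, the enzyme that adds bases at V(D)J joints in lymphoid progenitors. LSD1 scored 19.8 and 24.0 there with IL3, and 36.6 in replicate 2 without IL3, where replicate 1 held none. That of Cd79b is the Smarcd2 region, with 22.3 and 26.6 with IL3 and 27.4 in replicate 2 without. STAT5A was called at the Cd79b region, and no STAT5A list held the Dntt region. Without IL3, the region that both LSD1 libraries held was the distal one of Cd79a. This gene had 4 pooled LSD1 regions in each condition. Of these, 2 are the regions described above, and another lay at a start of Arhgef1, chr7:24902865-24903168, in replicate 2 of both conditions (26.6 with, 30.5 without). The last was at chr7:24853037-24853233 with IL3 (replicate 2, 21.3), and without IL3 at the start of the ribosomal protein gene Rps19, in the pooled list alone (20.3). Other LSD1 regions near Cd79b were in pooled lists alone, 5516 bp from the gene with IL3 (10.3) and in Scn4a without IL3 (17.8). Another, 48544 bp from Cd79a, was in replicate 2 without IL3 alone (15.2, rank 98.8%).

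HDAC3 was called near 0 of the 9 genes in all 4 replicate lists, 0 and 0 regions with IL3 against 0 and 0 without. These libraries reached 5.41% and 2.25% of all genes with IL3, against 12.1% and 5.65% without, so 0 of 9 genes is near the background in each. The pooled list with IL3 held 0 as well, where 10.8% of all genes had a region. In both replicates, 0.411% of all genes had one with IL3 and 2.97% without. The pooled list without IL3 reached 1 of 9 genes, Cd79a, against 24.4% of all genes, through the 2 regions given above, which ranked at 53.0% and 95.6%. With no region of a replicate list near these genes, gained and lost HDAC3 regions could not arise. For Bcl6, the repressor that binds HDAC3 complexes, the nearest pooled HDAC3 region was 162.5 kb from its own gene with and without IL3. Only 22.7% of all genes with and 44.3% without IL3 had a nearer one, so this distance is not a long one for HDAC3.

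**Figure D4:**
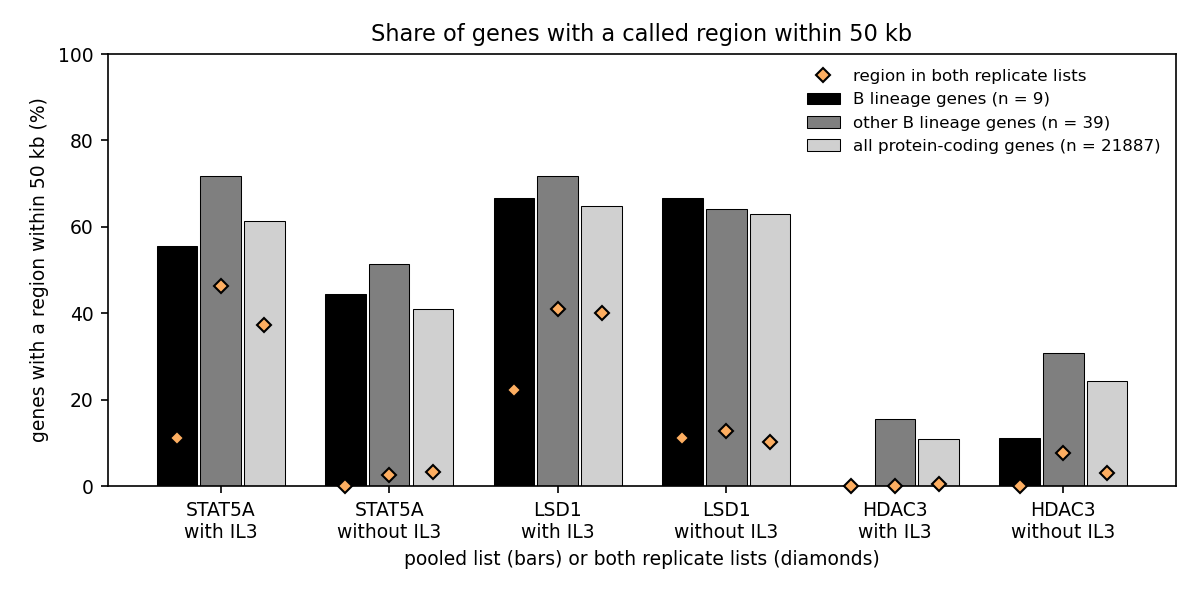
Percent of genes with a region within 50 kb in each pooled list (bars) and in both replicate lists (diamonds), for the 9 B lineage genes, 39 other B lineage genes and all 21887 protein-coding genes. In the pooled STAT5A list with IL3 the bars are 55.6%, 71.8% and 61.4%, and the diamonds 11.1%, 46.2% and 37.2%.

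Co-occupancy was counted in the pooled lists to ask which of the 3 proteins meet at these genes. With IL3, 4 of the 6 STAT5A regions overlapped LSD1 (beside Cd79a at both places, in Smarcd2 near Cd79b and at Zcchc7 near Pax5), against 33.4% of all STAT5A regions, and these are 4 of the 11 LSD1 regions, against 30.4%. The overlap count was 0 in replicate 1 lists and 3 in replicate 2 lists. Without IL3, 4 of 5 STAT5A regions overlapped LSD1, against 52.5%, and these are 4 of 11 LSD1 regions, against 15.7%, with 0 in replicate 1 lists and 3 in replicate 2 lists. HDAC3 met STAT5A and LSD1 at 0 regions with IL3, against 4.56% of STAT5A and 4.88% of LSD1 regions (58.7% and 69.0% of HDAC3 regions). Without IL3 it met both at 2, the regions beside Cd79a, against 17.1% of STAT5A and 13.8% of LSD1 regions (25.8% and 69.6% of HDAC3 regions), and in no pair of replicate lists. All 3 proteins were thus called together at Cd79a alone, without IL3, in the pooled lists.

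Scores at these genes were spread over the lists. With IL3 the 6 STAT5A regions had a median rank of 61.8%, and without IL3 the 5 had 59.8%. For LSD1 the 11 regions of each condition had medians of 54.8% with and 40.0% without IL3, with the best at 16.8% (Smarcd2) and 10.2% (the distal region of Cd79a). The Arhgef1 region was the one region of the set in the first 10% of a pooled STAT5A list.

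**Figure D5:**
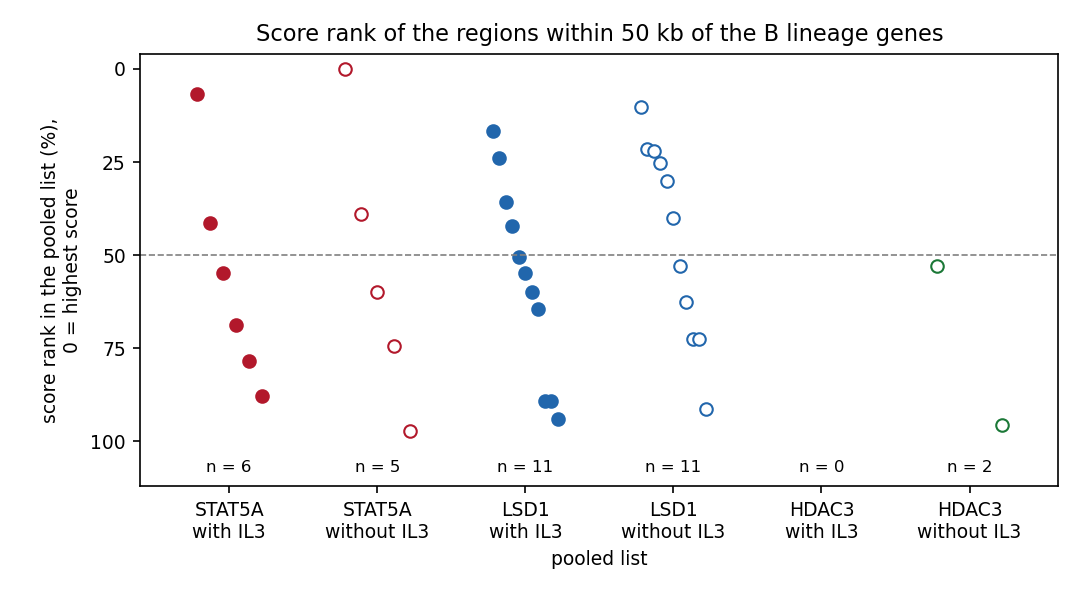
Rank of each region within 50 kb of the 9 genes in its own pooled list, in percent with the highest score at 0, filled for lists with IL3 and open for lists without IL3. STAT5A has 6 regions with and 5 without IL3, of which 1 in each list, that at Arhgef1, lies in the first 10%, and lists of different length are not compared by rank.

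A second list of 39 other B lineage genes gives a wider view of the same programme. In the pooled STAT5A list with IL3, 28 had a region (71.8%, against 61.4% of all genes), and 20 had one without IL3 (51.3%, against 40.9%). In both replicates with IL3 it was 18 genes (46.2%, against 37.2%). The genes with the most pooled STAT5A regions with IL3 were Xbp1, a plasma cell factor, with 8 with against 3 without, the kinase gene Lyn with 6 against 1, Ikzf1, which encodes Ikaros, with 5 against 4, Pou2f2, which encodes OCT2, with 5 against 4, and the kinase gene Syk with 5 against 1. Gained STAT5A regions lay near 6 of 39 genes, among them Cxcr4, Pou2f2, Cd22, Tcf3 and Xbp1, 15.4% against 15.6% of all genes. Those of Xbp1 scored 387.8 and 60.0 in replicates 1 and 2 with IL3 at 14.5 kb from the gene. The other scored 328.2 and 45.0 at 47.9 kb, inside Ankrd36. Cd22, which encodes an inhibitory B cell receptor, had 145.4 and 60.0 at 23.1 kb and 130.5 and 110.0 at 43.7 kb, inside Ffar2. The region in Tcf3, the gene of the E2A factor, was the one inside its gene and had 26.1 and 30.0. LSD1 gained regions near Id3 and Flt3, 2 of 39 genes against 9.09% of all genes, and lost 0, against 0.850%. That of Id3 lay 28.8 kb away inside E2f2 and ranked at 21.2% and 17.5% of the lists with IL3. That of Flt3 lay 29.9 kb away inside Pan3 and was weak, with scores of 14.9 and 16.0 at ranks of 94.3% and 97.5%. HDAC3 lost a region near Cxcr4 in both replicates, 1 of 39 against 1.01%. No pooled list had a region near Cr2, Cd93, Lef1, Cd38, Pou2af1, Bcl11a, Irf4 or Zfp521, 8 of 39 genes against 28.3% of all genes.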

How the data were processed

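Each of 12 libraries and each pooled group has a deposited region list, in which every region carries the authors' score. The score is undefined in the sources used here. The submitters' processing notes list HOMER 4.8, Picard 1.92, Bowtie2 2.1.0 and Trimmomatic 0.30, with mm10 as build. Peak settings, control and threshold are likewise not given, and the input library was not used.

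Counting used pandas 2.3.3, numpy 2.4.6 and scipy 1.17.1 under Python 3.11.15, and plots used matplotlib 3.10.9. Regions off assembled chromosomes were left out of all counts except list lengths. Positions are 1-based on mm10, and gene bounds and promoters are RefSeq's for GRCm38.p6. A region belonged to a gene if it overlapped the gene extended by 50 kb, and regions overlapping by 1 bp were merged. Numbers per library were tested on the log2(number + 1) scale (two-sided exact permutation test, threshold 0.05). P-values then measure only the spread between 2 libraries a group. Counting, gained calls and score steps were tested on simulated data. Named were all 9 genes, their regions in both replicates of a group and the highest in each pooled list, and of the second list the genes with most STAT5A regions, those with none and, chosen after their values were seen, those gaining or losing a region. The members and lists were chosen with earlier results of these data known. Alternatives were other windows, overlaps and score thresholds, left-out replicates, pooled lists, percent of the list and a replicate block. Some items are not reported here.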

Additional observations from a re-analysis of the deposited data

How the results depend on the processing

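With a 10 kb window, the log2 differences were 0.87 for STAT5A and -0.50 for LSD1, 3 genes had a pooled STAT5A region with IL3, 1 STAT5A region overlapped LSD1 with IL3, and 1 STAT5A and 1 LSD1 region overlapped HDAC3 without IL3. With 100 kb, the LSD1 difference turned to 0.12, that of STAT5A was 1.83 and that of HDAC3 -0.50, and 2 genes had HDAC3 without IL3. In the upper 50% of each list by score, the differences were 0.50 for STAT5A and 0.16 for LSD1, 3 genes had STAT5A and 3 had LSD1 with IL3, 0 had HDAC3 without IL3, and 1 LSD1 region was gained. There, 1 STAT5A region overlapped LSD1 with IL3 and 2 without, and 0 STAT5A and 0 LSD1 regions overlapped HDAC3. With an overlap of 50% of the shorter region, 2 STAT5A regions overlapped LSD1 with IL3. As percent of the list, the differences were -1.55 for STAT5A, -1.15 for LSD1 and 1.22 for HDAC3. The added region weighs most in short lists, and the STAT5A list with 0 regions here is the one with 354 in all. HDAC3 had no region here in any replicate list, so its 1.22 reflects the added region and the list lengths alone. For STAT5A and LSD1 the part of the added region was not tested. With no region added, the LSD1 shares were 0.0309% and 0.0519% with IL3, against 0.0995% and 0.0634% without. Those of STAT5A were 0.0295% and 0.0637% with, against 0% and 0.0666% without, and HDAC3 had 0 in each list. In pooled lists the differences were 0.22 for STAT5A, 0.00 for LSD1 and -1.58 for HDAC3.

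Leaving out 1 replicate gave 0 to 3 gained and 0 to 1 lost STAT5A regions, and 0 to 2 gained and 0 to 5 lost LSD1 regions, with LSD1 differences from -1.26 to 1.20. Single replicates gave 3 to 4 genes with STAT5A with IL3 and 0 to 3 without, 2 to 3 with LSD1 with IL3 and 1 to 6 without, and 0 with HDAC3. They gave 0 to 3 overlaps of STAT5A with LSD1 in each condition and 0 of either with HDAC3 without IL3. With the replicate block the STAT5A difference was 1.32 with an exact sign-flip permutation p of 0.5, the smallest 2 pairs allow, and no call changed. Same-numbered libraries share a number alone, and their deviations correlated across genes at 0.05 for STAT5A, 0.38 for LSD1 and 0.26 for HDAC3. Of 144 alternatives to 21 results, 5 reversed a direction and 39 moved a difference to or away from 0 or a count by over 1.5 times. In the other 100 the differences kept their direction, though not always their size, and the counts stayed within 1.5 times. As the design cannot reach p under 0.05, this says nothing of stability. Where a value moved, the cause was not tested unless named. Binding under 4 to 6 score steps was not detectable, and the lists of 354 and 1007 regions limit every count that needs both replicates without IL3.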
